A study of Mus musculus with 12 samples.

Results

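The 81 genes described here encode proteins of the cytosolic ribosome, out of 21328 features that could be tested on the same arrays. Members were genes whose RefSeq symbol is Rpl or Rps followed by a number, together with Rplp0, Rplp1, Rplp2 and Rpsa, without pseudogenes, mitochondrial ribosomal genes, Rps6k kinases or Rps19bp1, which encodes a binding protein. RefSeq lists 88 such protein-coding genes, 82 of which had a probe on the array. Rpl3l was well above background on too few arrays to be kept, and the genes with no probe were not analysed here. The members comprised 43 large-subunit genes, 30 small-subunit genes, 3 genes of the ribosomal stalk and 5 paralog copies. Each array held amplified RNA from 1 mouse morula, the ball of cells that precedes the blastocyst, of the cross (C57BL/6 x DBA/2) F1. The siXist clones (4, all male) were made by transfer of a Sertoli cell nucleus, from the supporting cells of the testis, and injected with siRNA against Xist at 6 to 7 h after activation. The siCont clones (4, all male) had the same origin and received a control siRNA at that time. The IVF embryos (2 female and 2 male) came from in vitro fertilisation and were not treated or injected. All embryos were cultured for 72 h. The labels do not give the number of Sertoli cell donors, and injection and origin differ together between clones and IVF embryos.

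A cytosolic ribosome contains 1 copy of most of its proteins, and cells make them in matched amounts with ribosomal RNA before joining them into the small and the large subunit. Many of their mRNAs begin with a stretch of pyrimidines, through which mTOR signalling controls their translation. In the early mouse embryo the genes are switched on with the zygotic genome and replace ribosomes stored in the egg. A few members have a second copy elsewhere in the genome, often used in particular tissues: Rpl39l, a copy of the X-linked Rpl39, is known for its use in male germ cells.

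Between 50.8% (siCont clone 3) and 61.5% (siXist clone 3) of probes exceeded the background clearly on an array. The same 2 arrays had the lowest (507) and the highest (1133) value of the 75th percentile of processed signals. The 3 classes were run on separate slides and in separate scans, so slide and scan cannot be told apart from class, whereas female and male IVF embryos shared a slide. Xist, the RNA that silences the X chromosome, was at 1.36 to 2.45 in siXist clones, 4.56 to 5.65 in siCont clones, 5.17 to 5.24 in female and -7.04 to -4.92 in male IVF embryos, in log2 units relative to the 75th percentile of the array, the scale used for all levels below. Of 8 morula markers kept of 9 listed (such as Pou5f1, Cdx2 and Krt8, but not Nanog), 7 or 8 were above background in every siXist clone, 6 to 8 in siCont clones and all 8 in IVF embryos. Their levels were less alike: 6 were lower in siXist clones than in IVF embryos (Sox2 by a difference of -6.89) and 5 in siCont clones (Cdx2 at -5.77), the rest being higher. None of these differences passed the threshold given below. With 4 arrays a class, precision is limited by the number of arrays.

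Of the members, 80 were well above background on all 12 arrays and Rpl39l on 10. In the comparison of siXist with siCont clones, 0 of 81 members passed the threshold (limma, Benjamini-Hochberg adjusted p below 0.05) where 0.00938% of all features did. Between siXist clones and IVF embryos it was 0 of 81 (0.403% of all features), and between siCont clones and IVF embryos 0 of 81 (0.281%). Between female and male IVF embryos it was 0 of 81 (0.0141%). With the siXist and siCont clones pooled against IVF embryos, a comparison added after the data were seen, it was again 0 of 81 (0.708%). At an unadjusted p below 0.05 the members numbered 2, 2, 1, 0 and 2 in the same order of comparisons, where 12.7%, 12.6%, 12.1%, 1.84% and 12% of all features had such a p. Across the comparisons the members past that unadjusted threshold were Rpsa, Rpl36al, Rpl39 and Rpl39l. The 95% interval of the siXist minus siCont difference lay within 1.5 log2 units of 0 for 74 of 81 members and within 1 for 16.

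A single member stood apart. Rpl39l, the autosomal copy of the large-subunit gene Rpl39, was far dimmer in cloned than in IVF morulae. At its brighter probe it was at -0.14, 1.67, -6.81 and -0.25 in siXist clones 1 to 4. It was at -0.70, 1.43, -0.37 and -8.11 in siCont clones 1 to 4. In IVF embryos 1 to 4 it was at 6.71, 7.15, 6.58 and 6.76. Each of the 8 clones thus lay at least 4.91 log2 units below the lowest IVF embryo, siXist clone 3 and siCont clone 4 were not well above background, and the 4 IVF embryos lay close together, females and males alike. The share of all features with clones so separated from IVF embryos was not counted.

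Rpl39l is on chromosome 16, and its RefSeq promoter is shown because this member carried the one large difference. The promoters of its parent Rpl39 and of the stalk genes Rplp0 and Rplp2, none of which passed the test in any comparison, are shown beside it. Sequences are RefSeq windows of build GRCm38.p6, 5′ to 3′ on the strand of the gene, each ending 30 bases into the transcript, and capitals mark CCGGAAG or its reverse complement CTTCCGG, the core bound by Ets-family factors. The windows are chr16:10170068-10170257 (plus strand), chrX:37085193-37085272 (minus strand), chr5:115559417-115559496 (plus strand) and chr7:141447541-141447680 (plus strand).
Rpl39l: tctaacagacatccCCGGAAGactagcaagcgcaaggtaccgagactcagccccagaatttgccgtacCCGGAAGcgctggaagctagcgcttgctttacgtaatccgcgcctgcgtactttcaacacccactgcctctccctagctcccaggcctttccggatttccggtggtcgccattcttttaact
Rpl39: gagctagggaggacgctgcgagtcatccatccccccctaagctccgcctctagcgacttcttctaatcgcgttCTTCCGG
Rplp0: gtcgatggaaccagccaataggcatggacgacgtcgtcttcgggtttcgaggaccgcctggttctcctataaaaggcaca
Rplp2: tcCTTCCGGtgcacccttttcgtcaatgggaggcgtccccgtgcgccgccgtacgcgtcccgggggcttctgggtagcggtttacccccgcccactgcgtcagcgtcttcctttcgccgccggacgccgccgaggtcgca

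The Rpl39l window holds the letters CCGGAAG at 146 and 92 bases before the annotated start, the Rpl39 window holds the reverse complement from base 24 of the transcript, and the Rplp2 window holds it at 108 bases before the start. The Rplp0 window holds neither. Of the 81 members 62 matched an entry of the table, and in the 300-base windows (250 before the start and 50 after it, first entry per gene, both strands) 25 of the 62 (40.3%) held the Ets core, against 9.12% of 27025 genes. The letters ATGGCGG, a core of YY1, were in 16.1% of the members' windows and 4.19% of all windows, and GGGCGG, the box bound by Sp1, in 61.3% and 35.9%. TATAAA, the TATA box, was in 9.68% and 14.2%. A run of 8 or more pyrimidines between 20 bases before and 30 after the start was in 50% of the members' windows and 18.8% of all. A match describes the letters only.

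A second probe of Rpl39l also had all 8 clones below all 4 IVF embryos, and in it siXist clones averaged lower than siCont clones, the opposite of the brighter probe. It was at -8.43, -8.56, -8.94 and -7.86 in siXist clones 1 to 4 and not well above background in any. In siCont clones 1 to 4 it was at -8.11, -1.68, -7.72 and -8.14, and only clone 2 was above background. In IVF embryos 1 to 4 it was at 2.20, 3.51, 2.43 and 2.26, above background in each. Each clone was then set at the higher of its own signal and the lowest signal well above background on its array. With that, this probe was 570-fold lower in siXist clones (0 of 4 above background) and 172-fold lower in siCont clones (1 of 4 above background) than in IVF embryos. On the same footing the brighter probe was 287-fold lower in siXist clones and 294-fold lower in siCont clones (3 of 4 above background in each). These folds depend on the floor chosen and are not lower bounds, as a higher floor gives smaller ones. The second probe was kept only through the IVF embryos, where it is high, so no test of it is given.

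On the brighter probe, limma gave -8.18 ± 2.20 (SE, adjusted p = 0.177) for siXist clones against IVF embryos and -8.73 ± 2.20 (adjusted p = 0.159) for siCont clones against IVF embryos. For all clones against IVF embryos it gave -8.46 ± 1.91 (adjusted p = 0.106, 95% interval -12.70 to -4.21). None passed the threshold, and the SD was 3.73 in siXist clones, 4.22 in siCont clones and 0.24 in IVF embryos (n = 4 each). A two-sided exact permutation test of the brighter probe gave p = 0.0286 for siXist clones and for siCont clones, and p = 0.00404 for all clones, each the smallest that these numbers of embryos allow. The gene was singled out with its values known, the full separation of clones from IVF embryos among them. The permutation p-values could then take no other value and add no support.

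Whether the brighter probe passed depended on the processing. After normexp background correction Rpl39l passed in siXist clones (-7.19, adjusted p = 0.0354) and in siCont clones (-7.38, adjusted p = 0.0356). With a floor under dim signals it did not pass in siXist clones (-7.88, adjusted p = 0.0904) or in siCont clones (-8.11, adjusted p = 0.0820). The mean of both probes takes in the second one and is left out of the ranges that follow. Over the other alternatives the adjusted p ranged from 0.0354 to 0.504 for siXist clones and from 0.0356 to 0.434 for siCont clones. The sign was negative in each. Without siXist clone 3 the siXist minus IVF difference was -6.37 ± 1.94 (adjusted p = 0.314). Between the clones, siXist minus siCont was 0.56 ± 2.20 (adjusted p = 0.929), with a 95% interval of -4.35 to 5.46.

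The Sertoli cell markers kept (8 of 10 listed, such as Sox9, Clu and Cldn11) had summed linear signals of 2.59 to 15.1 times the 75th percentile in siXist clones, 2.01 to 12.8 in siCont clones and 2.42 to 4.68 in IVF embryos. The genes did not move together: 3 were higher and 5 lower in siXist clones than in IVF embryos, and 6 higher and 2 lower in siCont clones. For all clones against IVF embryos Sox9 was at -3.97, Clu at 1.42 and Cldn11 at 1.81, none past the threshold. Cumulus cell markers (5 of 8 kept) summed to 3.60 to 7.29 in siXist clones, 4.0 to 8.61 in siCont clones and 2.0 to 4.48 in IVF embryos. Sperm markers (4 of 6 kept) summed to 0.0751 to 0.42 in siXist clones, 0.151 to 0.679 in siCont clones and 0.0879 to 0.318 in IVF embryos. Among them Cldn11, Cyp11a1 and Tnfaip6 were not well above background on any IVF array, nor Ptx3 on any siXist array. Their part in the Rpl39l difference was not tested. In RNA from whole embryos, fewer cells that express a gene and less RNA per cell cannot be told apart.

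**Figure D1:**
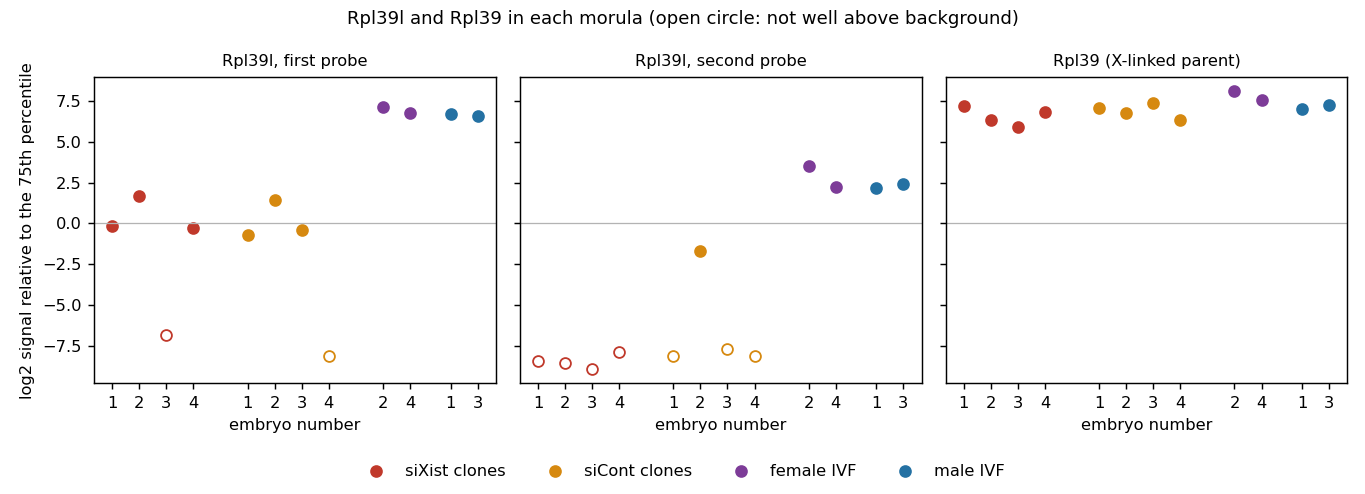
Level of Rpl39l at its brighter (first) and dimmer (second) probe and of its X-linked parent Rpl39 in each of the 12 morulae, in log2 units relative to the 75th percentile of the array; each point is 1 embryo, and an open circle marks a probe not well above background. For the brighter Rpl39l probe the clones lie at or below 1.67 and the IVF embryos at or above 6.58, whereas Rpl39 lies between 5.93 and 8.12 in all 12.

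The parent gene Rpl39 encodes a small protein at the exit tunnel of the large subunit. It was at 7.21, 6.32, 5.93 and 6.86 in siXist clones 1 to 4 and at 7.05, 6.77, 7.39 and 6.35 in siCont clones 1 to 4. It was at 7.00, 8.12, 7.28 and 7.59 in IVF embryos 1 to 4, of which 2 and 4 are female. The classes overlapped. The differences were -0.92 ± 0.38 for siXist clones against IVF embryos (adjusted p = 0.358) and -0.61 ± 0.38 for siCont clones against IVF embryos (adjusted p = 0.560).

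The other paralog copies showed no difference past the threshold. Rps27l, a copy of Rps27 that p53 is known to induce, was at 7.48, 6.89, 6.78 and 7.55 in siXist clones 1 to 4, at 7.33, 7.43, 8.22 and 7.12 in siCont clones 1 to 4 and at 7.23, 7.39, 7.01 and 6.74 in IVF embryos 1 to 4. The classes overlapped. Its siXist minus IVF difference was 0.08 ± 0.36 (adjusted p = 0.939) and its siCont minus IVF difference 0.43 ± 0.36 (adjusted p = 0.663). Those of its parent Rps27 were -0.61 ± 0.43 and -0.33 ± 0.43 (adjusted p = 0.582 and 0.797).

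Rpl22l1, a copy of the RNA-binding large-subunit gene Rpl22, ran from 3.17 to 4.91 in siXist clones, 4.18 to 5.42 in siCont clones and 4.34 to 5.18 in IVF embryos. Its siXist minus IVF difference was -0.73 ± 0.46 (adjusted p = 0.535), against -0.40 ± 0.32 (adjusted p = 0.621) for Rpl22. Rpl7l1, a relative of Rpl7 that takes part in assembly of the large subunit, ran from 2.86 to 4.39 in siXist clones, 3.01 to 4.61 in siCont clones and 3.51 to 4.67 in IVF embryos. Its siXist minus IVF difference was -0.31 ± 0.50 and that of Rpl7 -0.52 ± 0.38 (adjusted p = 0.818 and 0.589).

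Rpl36al, the autosomal copy of the X-linked Rpl36a on chromosome 12, was the lower member with the smallest p between siXist and siCont clones. It was at 5.72, 4.98, 4.93 and 5.84 in siXist clones 1 to 4 and at 6.24, 6.29, 6.30 and 5.91 in siCont clones 1 to 4. IVF embryos 1 to 4 were at 5.90, 6.42, 6.10 and 5.91. Every siXist clone was below every siCont clone, but narrowly (5.84 against 5.91), and the share of all features so separated was not counted. The difference of -0.82 ± 0.32 did not pass the threshold (adjusted p = 0.366 in limma). It was -0.44 ± 0.27 after quantile normalisation and 0.31 ± 0.46 in the authors' table, beside 0.91 as the median of all features. Its parent Rpl36a differed by -0.37 ± 0.34 between the same clones (adjusted p = 0.645).

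Rpsa, a small-subunit protein that is also known as a laminin receptor, was the higher member with the smallest p in that comparison. Its brighter probe was at 1.79, 1.60, 1.25 and 1.97 in siXist clones 1 to 4 and at 1.51, 0.68, 0.78 and 0.50 in siCont clones 1 to 4, with siCont clone 1 above siXist clone 3. IVF embryos 1 to 4 were at 1.66, 1.15, 1.25 and 1.49. The difference of 0.79 ± 0.33 did not pass the threshold (adjusted p = 0.379 in limma), and its second probe ran the other way (-0.64 ± 0.73). Rpl27a, a large-subunit gene, had the lowest siXist minus siCont difference (-0.90 ± 0.44, adjusted p = 0.422). Rpl32, another large-subunit gene, was at -0.54 ± 0.37 (adjusted p = 0.545). Rps14, a gene of the small-subunit platform, was at 0.27 ± 0.44 (adjusted p = 0.804) and Rpl29, of the large subunit, at 0.12 ± 0.35 (adjusted p = 0.896).

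The 3 stalk genes encode the proteins that recruit elongation factors to the large subunit. Rplp0 was at 8.59, 8.21, 7.85 and 8.55 in siXist clones 1 to 4, at 8.70, 8.42, 9.16 and 8.15 in siCont clones 1 to 4 and at 8.57, 8.74, 8.49 and 8.72 in IVF embryos 1 to 4. Between siXist and siCont clones Rplp0 differed by -0.31 ± 0.32, Rplp1 by -0.33 ± 0.31 and Rplp2 by -0.34 ± 0.32 (adjusted p = 0.687, 0.657 and 0.645). The siCont minus IVF differences were -0.02, 0.04 and 0.07 for the same genes. In all 3 genes siXist clone 3 was the lowest and siCont clone 3 the highest of the 12 embryos.

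That shared order extended across the members. The median of the 81 was 7.48, 7.06, 6.36 and 7.42 in siXist clones 1 to 4. It was 7.51, 7.14, 7.88 and 6.92 in siCont clones 1 to 4 and 7.33, 7.60, 7.26 and 7.53 in IVF embryos 1 to 4. The class means were 7.08 ± 0.51, 7.36 ± 0.42 and 7.43 ± 0.16 (SD, n = 4 each) for siXist clones, siCont clones and IVF embryos, and their ranges overlapped. The embryo with the lowest median (siXist clone 3) had the highest 75th percentile and the one with the highest median (siCont clone 3) the lowest, so the scale itself moved with the median.

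Before scaling, the member median was at 17.00, 16.94, 16.50 and 16.95 on the log2 processed signal in siXist clones 1 to 4. It was 16.95, 16.91, 16.87 and 16.74 in siCont clones 1 to 4 and 16.79, 16.92, 16.97 and 16.94 in IVF embryos 1 to 4. Its SD over the 12 embryos was 0.39 with scaling to the 75th percentile, 0.14 without scaling and 0.089 after quantile normalisation. The median correlation between pairs of members over the 12 embryos was 0.86 with scaling to the 75th percentile and 0.19 after quantile normalisation, against 0.49 and 0.20 for 77 mitochondrial ribosomal genes with complete values. These correlations share the scaling of each array and are given as a description.

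**Figure D2:**
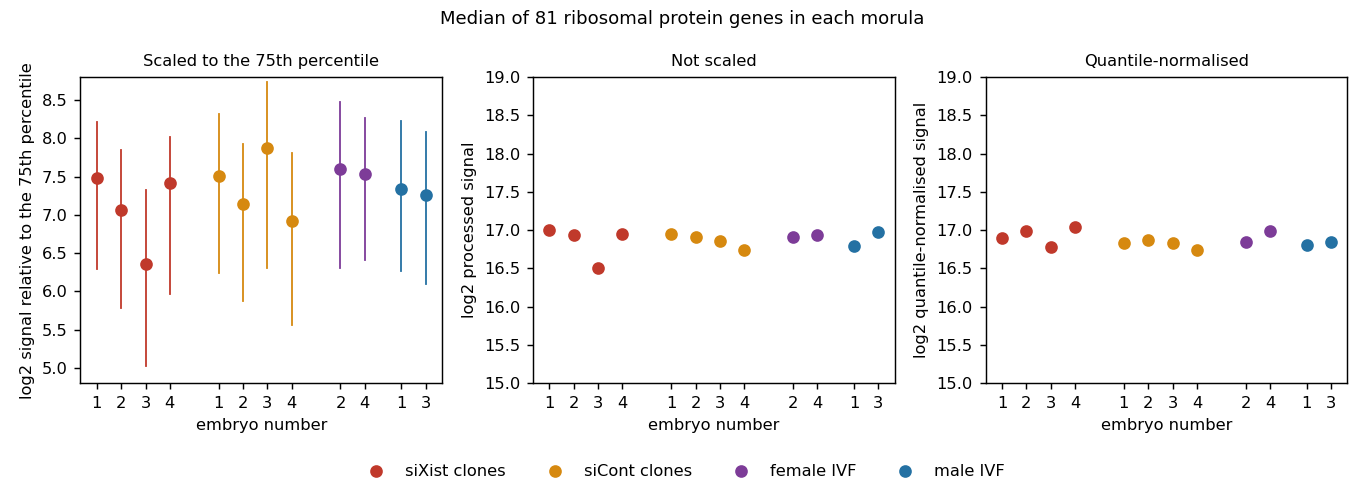
Median level of the 81 ribosomal protein genes in each morula under 3 scalings of the log2 processed signal; points are single embryos, and bars in the left panel run between the quartiles over the members. The median ranges from 6.36 in siXist clone 3 to 7.88 in siCont clone 3 with scaling to the 75th percentile, and from 16.75 to 17.04 after quantile normalisation.

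Between siXist and siCont clones 5 members were higher and 76 lower, with a median difference of -0.28, beside -0.22 over all features. Against IVF embryos, 3 members were higher and 78 lower in siXist clones (median -0.37, beside -0.24 over all features). In siCont clones 20 were higher and 61 lower (median -0.10, beside -0.03). The direction of these counts depended on the scaling. After quantile normalisation 60 members were higher and 21 lower in siXist than in siCont clones (median 0.05), and 44 higher and 37 lower in siXist clones than in IVF embryos (median 0.02). In the authors' table all 81 were higher in siXist than in siCont clones (median 0.86, beside 0.91 over all features). Without siXist clone 3 the siXist minus siCont median was -0.07, and without siCont clone 3 it was -0.10. Relative to the median of all features the siXist minus siCont median of the members was -0.05 with scaling to the 75th percentile and -0.06 in the authors' table, and 0.10 after quantile normalisation.

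**Figure D3:**
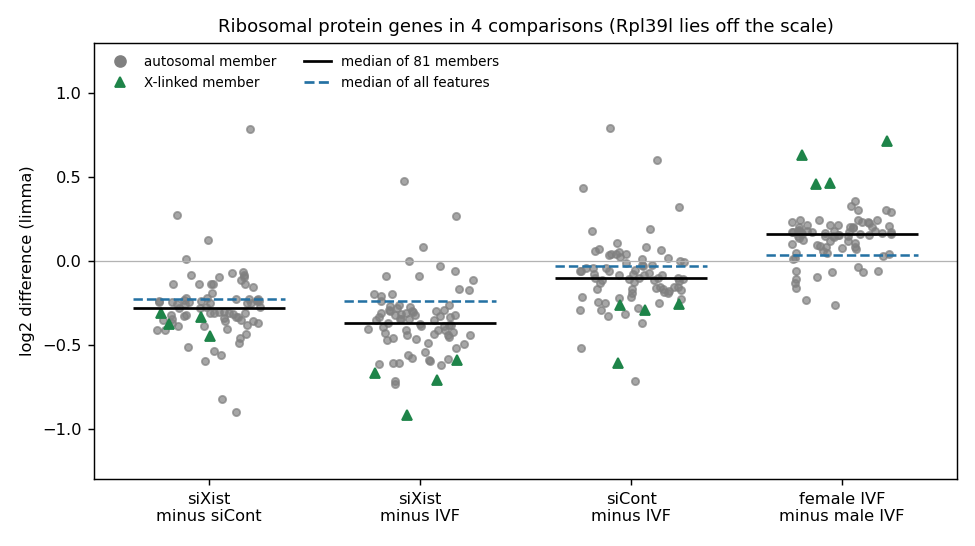
Log2 difference of 80 ribosomal protein genes in 4 comparisons, 1 point per gene, with X-linked members as triangles, the median of the 81 members as a solid line and the median of all features as a dashed line. Rpl39l lies outside the axis in both comparisons of clones with IVF embryos (-8.18 and -8.73) and is not drawn in any; the triangles lie above the autosomal members in female against male IVF embryos.

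Among members other than Rpl39l, Rpl31 had the highest and Rps14 the lowest difference in siCont clones against IVF embryos, and Rpl31 the highest and Rpl39 the lowest in siXist clones. Rpl31, a large-subunit gene near the exit of the tunnel, was at 3.64, 2.04, 2.27 and 3.59 in siXist clones 1 to 4, at 3.37, 3.76, 2.41 and 3.27 in siCont clones 1 to 4 and at 2.84, 1.87, 2.14 and 2.79 in IVF embryos 1 to 4. The classes overlapped. The difference was 0.48 ± 0.50 in siXist clones and 0.79 ± 0.50 in siCont clones (adjusted p = 0.708 and 0.561). For Rps14 the difference was -0.44 ± 0.44 in siXist clones and -0.71 ± 0.44 in siCont clones (adjusted p = 0.694 and 0.551). Rpl27a was at 0.60 ± 0.44 in siCont clones against IVF embryos (adjusted p = 0.619), and Rpl36al at -0.72 ± 0.32 in siXist clones against IVF embryos (adjusted p = 0.398).

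Female and male IVF embryos, which shared a slide, were compared for the 4 X-linked members: Rpl39, Rpl10, whose protein is among the last to join the large subunit, Rps4x of the small subunit and Rpl36a of the large subunit. Rpl10 was at 7.85 and 7.53 in female embryos and at 7.07 and 7.06 in male embryos. Rps4x was at 8.50 and 8.38 in female embryos and at 8.01 and 7.96 in male embryos. Rpl36a was at 8.05 and 7.71 in female embryos and at 7.40 and 7.43 in male embryos. Both females lay above both males for 4 of 4 X-linked members and for 33 of 77 autosomal members (42.9%). The share was 17.2% of all features with complete values and 44.8% of 475 X-linked features. These shares were counted with scaling to the 75th percentile only, where 70 members were higher and 11 lower in females. After quantile normalisation 38 were higher and 43 lower (median -0.003, beside -0.007 over all features). Without scaling 18 were higher and 63 lower (median -0.06, beside -0.19).

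The female minus male difference was 0.72 ± 0.54 for Rpl39, 0.63 ± 0.51 for Rpl10, 0.46 ± 0.49 for Rpl36a and 0.46 ± 0.47 for Rps4x. None passed the threshold (adjusted p = 1.00 in limma for each), and 2 embryos a sex leave wide intervals, -0.48 to 1.91 for Rpl39. These were the 4 largest differences of the 81. The next was 0.36 for the large-subunit gene Rpl4, and the median of autosomal members was 0.16, beside 0.57 for X-linked features and 0.04 for all features. After quantile normalisation the 4 differences were 0.55, 0.46, 0.30 and 0.27 for Rpl39, Rpl10, Rpl36a and Rps4x. In the deposited table of the authors they were 0.02, -0.07, -0.24 and -0.24, beside -0.67 over all features.

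In the clones, which are male, X-linked members were set against the median of the 77 autosomal members of the same embryo, which takes out the scale of the array. On that scale Rpl39 averaged -0.51 ± 0.21 in siXist clones, -0.50 ± 0.09 in siCont clones (SD, n = 4 each), 0.41 ± 0.25 in female IVF embryos and -0.16 ± 0.25 in male IVF embryos (n = 2 each). Rpl10 averaged -0.42 ± 0.18 in siXist clones, -0.27 ± 0.11 in siCont clones, 0.25 ± 0.10 in female and -0.23 ± 0.05 in male IVF embryos. Rps4x averaged 0.53 ± 0.19 in siXist clones, 0.57 ± 0.06 in siCont clones, 1.00 ± 0.04 in female and 0.69 ± 0.02 in male IVF embryos. Rpl36a averaged -0.12 ± 0.11 in siXist clones, -0.03 ± 0.12 in siCont clones, 0.44 ± 0.11 in female and 0.12 ± 0.08 in male IVF embryos.

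In both kinds of clone the 4 X-linked members were below the female IVF embryos and nearer to the male ones, which were on another slide. Their averages were below the male ones too. For Rpl39, Rpl10, Rps4x and Rpl36a, siXist clones minus male IVF embryos gave -0.36, -0.19, -0.16 and -0.23, and siCont clones minus male IVF embryos -0.34, -0.04, -0.11 and -0.15. The siXist minus siCont differences on that scale were -0.02, -0.16, -0.04 and -0.08 for Rpl39, Rpl10, Rps4x and Rpl36a, each smaller than the SD within siXist clones. The limma differences between siXist and siCont clones were -0.31 ± 0.38, -0.45 ± 0.36, -0.33 ± 0.33 and -0.37 ± 0.34 for the same genes (adjusted p = 0.736, 0.601, 0.669 and 0.645).

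**Figure D4:**
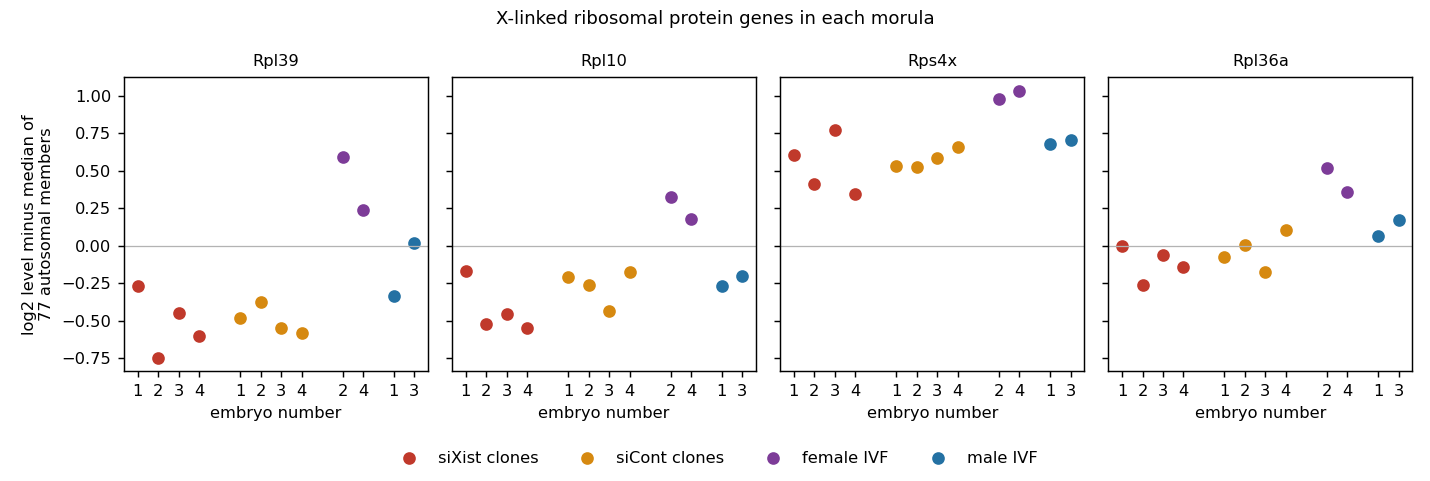
Level of the 4 X-linked ribosomal protein genes in each morula minus the median of 77 autosomal members of that embryo, in log2 units; each point is 1 embryo. In every panel both female IVF embryos lie above both male IVF embryos and above all 8 clones, and siXist and siCont clones overlap.

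The spread within classes was small for most members beside all features, a comparison not matched for level. The median level averaged 7.08 to 7.43 by class for the members and -1.56 to -1.45 for all features. The residual SD over the 12 embryos was below the median of all features (0.89) for 80 of 81 members, whose own median was 0.42, and the exception was Rpl39l (3.25). After Rpl39l the largest were Rpl7l1 (0.65), Rpl31 (0.65), Rpl14 (0.60) and Rpl22l1 (0.59), and the smallest Rpl30 (0.27), Rpl4 (0.29) and Rpl8 (0.31), all large-subunit genes or copies of one. Of the members 30 had more than 1 kept probe, and for 7 of these the probes differed in sign between siXist and siCont clones, most widely for Rpl37 (by 3.91 log2 units between probes).

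Other genes of translation and ribosome production gave no member past the threshold in any of these comparisons. Rack1, which encodes a scaffold protein of the ribosome, had a siXist minus siCont difference of -0.32, and Fau, which encodes a fusion precursor of a ribosomal protein, one of -0.16. Of 15 elongation factor and other pyrimidine-start genes 3 were higher and 12 lower in siXist than in siCont clones, with a median of -0.19, beside -0.22 over all features. Eef2, the factor that moves the ribosome along the mRNA, was at 1.05 ± 0.58 there and at -1.20 ± 0.58 in siCont clones against IVF embryos (adjusted p = 0.459 and 0.445). Genes of RNA polymerase I, which makes ribosomal RNA, were lower for 11 of 14 in siXist than in siCont clones (median -0.67, beside -0.22 over all features). They were lower for 12 of 14 in siXist clones than in IVF embryos (median -0.65, beside -0.24). In siCont clones 10 of 14 were lower than in IVF embryos (median -0.36, beside -0.03). Among these, Polr1b was at -1.41 ± 0.42 in siXist clones against IVF embryos (adjusted p = 0.216). Of all features 39.6% were higher in siXist than in siCont clones. Against IVF embryos 38.5% were higher in siXist clones and 48.4% in siCont clones. The lists here and below were counted with scaling to the 75th percentile only, and the direction of such counts depended on the scaling for the members.

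Ribosome biogenesis factors were lower for 29 of 36 in siXist than in siCont clones (median -0.45, beside -0.22 over all features). Against IVF embryos, 34 of 36 were lower in siXist clones (median -0.48, beside -0.24) and 23 of 36 in siCont clones (median -0.11, beside -0.03). Rrs1, an assembly factor of the large subunit, was at -1.26 ± 0.35 in siXist clones against IVF embryos (adjusted p = 0.189). Mitochondrial ribosomal genes had a median of -0.19 between siXist and siCont clones (24 higher and 54 lower of 78), -0.42 for siXist clones and -0.25 for siCont clones against IVF embryos. Subunits of the proteasome had medians of -0.22, -0.28 and -0.17 in the same order (40 genes). Genes of p53 and of ribosome surveillance were higher for 6 of 8 in siXist clones (median 0.82) and 8 of 8 in siCont clones (median 0.96) than in IVF embryos, where all features had medians of -0.24 and -0.03. Cdkn1a, an inhibitor of the cell cycle, was at 1.46 ± 0.56 in siXist clones and Phlda3, an inhibitor of Akt, at 1.55 ± 0.46 in siCont clones (adjusted p = 0.325 and 0.245). Of 17 genes of mTOR signalling and Myc, 6 were higher and 11 lower in siXist clones than in IVF embryos (median -0.34, beside -0.24). In siCont clones 7 were higher and 10 lower (median -0.09, beside -0.03). Myc, a known activator of ribosomal protein genes, had the smallest p of the list in siXist clones against IVF embryos. It was at -2.30 ± 0.77 there (adjusted p = 0.270 in limma), and differences in the list ran up to 2.25. The comparisons with IVF embryos share those embryos, and the siXist and siCont comparisons share clones.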

How the data were processed

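The scanner files hold the intensity of each probe after background subtraction and detrending by Agilent Feature Extraction 10.5.1.1, per the file headers. The authors' deposited value table is on a log2 scale, and what its constant per array rests on stays unknown. Here log2 processed signals minus the 75th percentile of the array were fitted in limma 3.58.1 (R 4.3.3) with a mean per group over all 12 arrays (8 residual degrees of freedom), two-sided, with Benjamini-Hochberg adjustment at 0.05 over all features. Outlier spots were left out, no spot was saturated, and probes well above background on at least 3 of 12 arrays were kept, with the highest-mean probe of a gene. Accessions matched RefSeq (GRCm38.p6) for 26888 probes (65.3%). IVF contrasts weighted the sexes equally. The members, gene lists and named genes (those with the smallest p, stalk, X-linked and paralog members, and those of largest and smallest spread) were chosen with earlier results of these data known. The fit was tested on simulated data. Rpl39l was also tested by exact two-sided permutation in scipy 1.17.1. Alternatives covered scaling, background, the filter, the probe rule, array weights, samples and the replicate number as a block.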

Additional observations from a re-analysis of the deposited data

Results flagged for a closer look

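Rpl36al in siCont clones held 1 embryo far from the others: siCont clone 4 was at 5.91 log2 units relative to the 75th percentile, and the other 3 were at 6.24 to 6.30. Its gap to the nearest of them was 0.848 of the whole range, above Dixon's 95% critical value for 4 samples. This was 1 of 54 groups of 4 looked at, and chance gives such a gap in about 1 group of 20.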

How the results depend on the processing

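No setting called a member between siXist and siCont clones or between female and male IVF embryos. Rpl39l was the 1 member called in siXist and in siCont clones against IVF embryos after normexp. Over all clones it alone was called after normexp, with array weights and with a floor under dim signals (adjusted p = 0.0122, 0.0392 and 0.0372). With the mean of probes it was also called in siXist clones and over all clones. That mean takes in a probe above background in none of the siXist clones and in 1 siCont clone. As that probe was kept only through the IVF embryos, those calls lend no support. All differences of Rpl39l stayed negative, from -9.86 to -6.37 in siXist and siCont clones. Without 1 array its adjusted p for all clones ran from 0.0713 to 0.310. The median difference of the members in the authors' table was 0.857 (siXist minus siCont), -1.20 (siCont minus IVF), -0.764 (all clones minus IVF) and -0.538 (female minus male); the table shifts whole arrays by constants. The SD of the member median over embryos was 0.089 after quantile normalisation, 0.115 after normexp, 0.671 in the authors' table and 0.138 without scaling.

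Counts over all features moved more than those of the members. Between siXist and siCont clones (2 here) the count was 0 after normexp, with all 12 arrays above background and with the replicate block, 4 in the authors' table and with the floor, 10 with only the groups compared and 5 to 55 without 1 array (55 without siXist clone 1). For siCont clones against IVF embryos (60 here) it was 35 with all 12 arrays above background, 17 with male IVF embryos only, 9 with the replicate block, 97 with the floor and 23 to 85 without 1 array. For siXist clones against IVF embryos (86 here) it was 35 in the authors' table, 134 with no filter, 43 with all 12 arrays above background, 19 with male IVF embryos only, 178 with array weights, 8 with the replicate block and 31 to 105 without 1 array. For female against male embryos (3 here) it was 6 after normexp, 23 with no filter, 0 with all 12 arrays above background or only the groups compared, 10 with array weights, 12 with the floor and 3 to 7 without 1 array. For all clones (151 here) it was 87 in the authors' table, 81 with all 12 arrays above background, 23 with male IVF embryos only, 246 with array weights, 27 with the replicate block and 44 to 168 without 1 array. Of the calls here 50% were higher in siXist clones and 51.7% in siCont clones than in IVF embryos, and 67.4% and 77.1% with all 12 arrays above background. Fewer features or arrays enter some of these fits, and otherwise the cause was not tested.

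Same-numbered embryos of different classes correlated by -0.142 to 0.0605 in their deviations. Pairs with different numbers were not compared, and whether a number stands for shared handling was not tested. With the replicate block the member medians were -0.277, -0.367 and -0.101 for siXist minus siCont, siXist minus IVF and siCont minus IVF, as without it, and 0.399 for female minus male, and no member was called. The floor, the fits without scaling and the comparison of all clones were chosen after seeing the data. Signals near background limit Rpl39l in the clones.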
